A study of Homo sapiens with 6 samples.

Results

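The genes of fatty acid synthesis and desaturation were followed through RNA-seq of 22Rv1 cells, a human prostate carcinoma line, that had survived repeated DNA damage. The 10 genes ACLY, ACACA, FASN, SCD, ELOVL5, ELOVL6, FADS1, FADS2, SREBF1 and ACSL3 were chosen by symbol from the 29804 symbols of the count table. All 10 were present and all 10 passed the expression filter, as did 14672 genes in all. There were 3 groups of 2 libraries, which the labels call biological replicates of wild-type genotype. WT cells were untreated parental cells at week 0. AM (age matched) cells were kept in culture for 6 weeks without drug. 6WP cells were cultured over the same 6 weeks and received 1 µg/ml phleomycin, a radiomimetic that breaks both DNA strands, on week days. All cells come from 1 line, and the 6WP cells are the population that outlived the treatment.

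Fatty acids are built in the cytosol. ATP citrate lyase (ACLY) cleaves citrate to acetyl-CoA, acetyl-CoA carboxylase (ACACA) turns this into malonyl-CoA, and fatty acid synthase (FASN) assembles palmitate from both. Elongases of the ELOVL family lengthen the chain in the ER membrane, stearoyl-CoA desaturase (SCD) introduces the first double bond, and the FADS desaturases act on polyunsaturated chains. Acyl-CoA synthetases such as ACSL3 activate free fatty acids. Many of these genes are targets of SREBP-1, the product of SREBF1, which the escort protein SCAP carries from the ER to the Golgi for cleavage and which INSIG proteins retain in the ER. Prostate cancer cells are known for active lipid synthesis.

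Libraries held 21222201 to 35311945 counts, at which 3 counts correspond to 0.0883 to 0.138 CPM (counts scaled to library size with TMM factors). These floors cover counting error only, and the 10 genes lay far above them, with between 1709 and 46985 counts per library. The 6WP replicates differed more from each other than the others did, with a chi-square per degree of freedom of 67.9 against 5.97 in WT and 9.68 in AM cells. All 9 markers of luminal prostate epithelium exceeded 1 CPM in every library. Their summed level was 3009 to 3191 CPM in WT, 2063 to 2444 in AM and 2552 to 3436 in 6WP cells. Summed over the lists, markers of basal epithelium reached at most 0.179 CPM, those of fibroblasts at most 4.23, those of leukocytes at most 3.96 and those of adipocytes at most 0.0459. KRT5, PTPRC, CD3E, ADIPOQ, PLIN1 and FABP4 had 0 counts in every library. The part of the luminal markers in the results was not tested.

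Sequence upstream of the start site is shown for 5 genes chosen after their values were seen, because they carry the contrasts described later. ACSL3 and SREBF1 were called higher in AM against WT cells and lower in 6WP against AM cells, but not called in 6WP against WT cells. FADS2 had the same calls as ACSL3 and SREBF1, but its windows are not shown. ELOVL6 passed the test against both controls, ELOVL5 passed it against AM cells only and SCD passed it in no comparison. The 250 bases before the RefSeq start (GRCh38.p14) are written 5′ to 3′ on the gene's strand, with matches to CCAAT or its reverse complement ATTGG (the box bound by NF-Y) and to CACGTG (the E-box) in capitals.
SCD, chr10:100346983-100347232, plus strand: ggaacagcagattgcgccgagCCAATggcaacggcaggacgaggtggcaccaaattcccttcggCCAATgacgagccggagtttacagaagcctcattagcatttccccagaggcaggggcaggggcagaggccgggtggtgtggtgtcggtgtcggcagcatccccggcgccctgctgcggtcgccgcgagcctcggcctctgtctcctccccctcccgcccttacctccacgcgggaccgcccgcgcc
ELOVL5, chr6:53348951-53349200, minus strand: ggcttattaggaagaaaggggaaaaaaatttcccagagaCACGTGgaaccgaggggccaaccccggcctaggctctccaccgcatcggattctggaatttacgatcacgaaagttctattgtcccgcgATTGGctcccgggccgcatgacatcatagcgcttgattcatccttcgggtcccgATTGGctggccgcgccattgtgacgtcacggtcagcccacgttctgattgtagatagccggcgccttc
ACSL3, chr2:222860786-222861035, plus strand: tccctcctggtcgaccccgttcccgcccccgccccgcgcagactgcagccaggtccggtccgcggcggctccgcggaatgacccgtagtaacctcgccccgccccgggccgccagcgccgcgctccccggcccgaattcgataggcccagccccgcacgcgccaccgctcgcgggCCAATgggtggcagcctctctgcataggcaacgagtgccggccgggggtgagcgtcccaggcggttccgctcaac
ELOVL6, chr4:110198616-110198865, minus strand: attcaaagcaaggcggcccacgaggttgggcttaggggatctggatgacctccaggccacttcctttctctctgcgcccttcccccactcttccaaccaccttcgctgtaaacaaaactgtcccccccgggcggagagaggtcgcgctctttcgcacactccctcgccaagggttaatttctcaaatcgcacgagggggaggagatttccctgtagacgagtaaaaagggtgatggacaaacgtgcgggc
SREBF1, chr17:17836987-17837236, minus strand: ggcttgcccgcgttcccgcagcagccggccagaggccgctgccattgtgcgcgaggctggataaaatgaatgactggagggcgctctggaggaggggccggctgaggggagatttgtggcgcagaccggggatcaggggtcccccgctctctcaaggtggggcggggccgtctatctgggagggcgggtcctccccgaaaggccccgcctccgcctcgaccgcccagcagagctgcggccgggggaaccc
Of the 10 genes, 9 had an entry in the promoter table, with 13 start sites between them, and FASN had none. CCAAT on either strand occurred upstream of ACLY, ACACA, SCD, ELOVL5 and ACSL3, 5 of the 9 genes, and of 37.0% of all 27305 genes in the table. The E-box CACGTG occurred upstream of ELOVL5 alone among the 9, against 7.73% of all genes. TCACNCCAC, a form of the sterol regulatory element, was upstream of none of the 9 genes and of 1.09% of all genes. GGGCGG, the GC box, which is not capitalised above, was present upstream of 8 of the 9 genes (all but ELOVL5) and of 46.2% of all genes. All motifs were searched on both strands. A letter match is not a binding site, and these windows leave out introns and distant elements.

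FADS1 and FADS2 are neighbours on chromosome 11 (61799627-61829318 on the minus strand and 61792980-61867354 on the plus strand of GRCh38). The 2 listed starts of FADS2 lie 800 and 599 bases from the start of FADS1. Annotated exons of FADS2 overlap 142 bases of the canonical FADS1 transcript (3.25% of its length) on the opposite strand, and those of FADS1 overlap 148 bases of the canonical FADS2 transcript (4.79%). Exons of other genes overlap 3.63% of the canonical transcript of ACLY, 2.37% of that of ELOVL6 and 2.45% of that of SREBF1 on the opposite strand. Exons of the 10 genes outside their canonical transcripts were not examined for overlap. The counting's strand setting is not given in the sources used here. Canonical exons of ACACA (chromosome 17, 37084992-37406836), FASN (chromosome 17, 82078338-82098294), SCD (chromosome 10, 100347233-100364826), ELOVL5 (chromosome 6, 53267398-53349179) and ACSL3 (chromosome 2, 222860942-222944639) overlap no annotated exon of another gene. SREBF1 counts cover all its transcripts, so the SREBP-1a and SREBP-1c forms were not separated.

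Levels were compared between genes as CPM per kilobase of exon. In WT cells SCD was highest at 347 ± 7.61 CPM per kilobase, followed by ACLY at 112 ± 1.16, ELOVL5 at 96.7 ± 6.66 and FASN at 75.1 ± 15.4 (SD, n = 2 each). These 4 genes kept this order in AM and 6WP cells, and also when the longest transcript was used as the length. The ranges of mean ± SD of ELOVL5 and FASN overlapped in WT cells and in AM cells (102 ± 7.22 and 90.3 ± 9.99 in AM). The other 6 genes lay between 9.48 (ACSL3) and 27.8 (ACACA) in WT cells, and their order depended on the transcript length chosen.

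**Figure D1:**
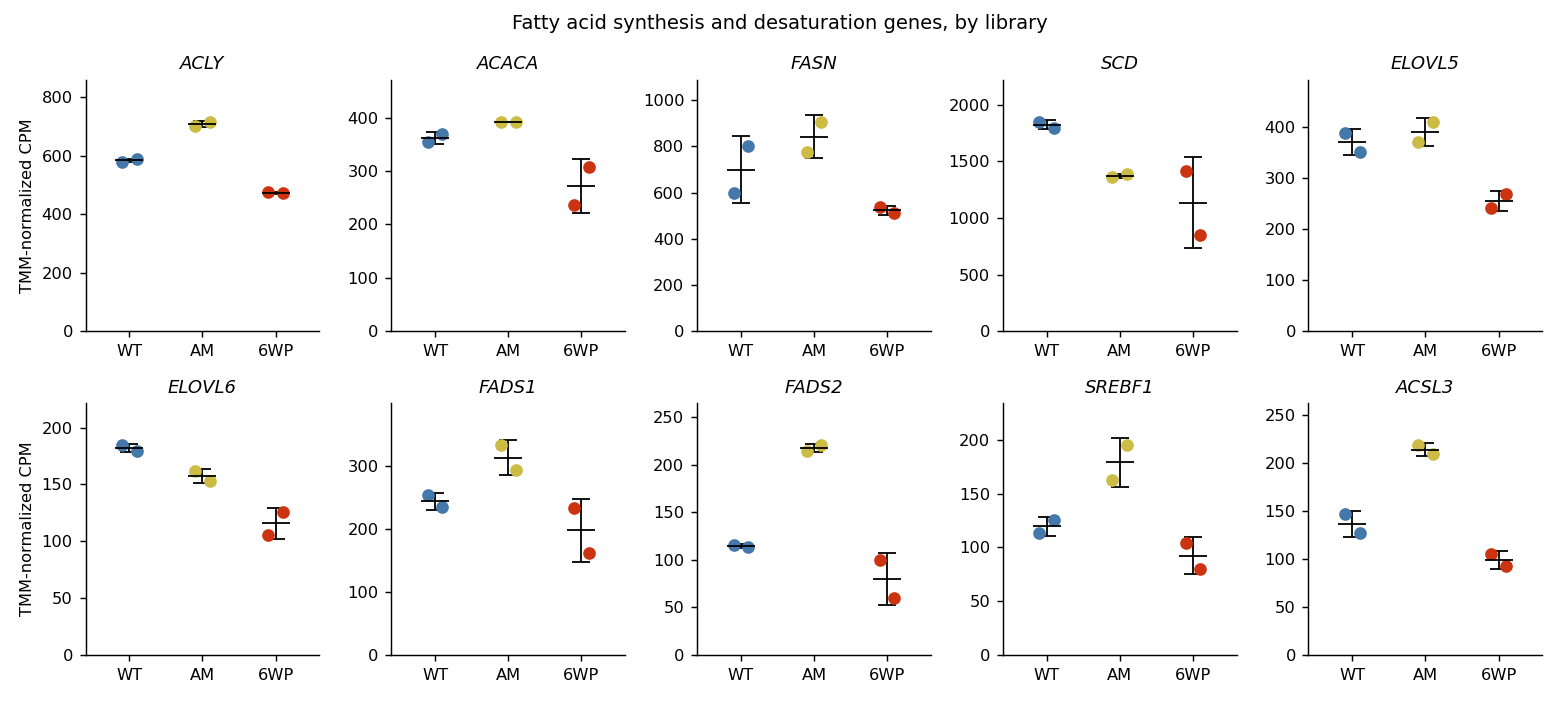
TMM-normalized CPM (vertical axes, linear from 0) of each of the 10 genes in the 2 libraries of WT, AM and 6WP cells, with points for libraries and bars for the mean and SD. All 10 genes have both 6WP libraries below both WT libraries, and SCD is the only one whose 6WP libraries overlap AM cells.

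All p-values are from edgeR's quasi-likelihood model, adjusted across every tested gene, and SE is the standard error of a log2 fold change. All 10 genes had lower estimates in 6WP cells than in either control. Against AM cells, grown for the same time without phleomycin, 9 of the 10 fell at an adjusted p-value under 0.05 and SCD did not pass the test. This compares with 9.68% of all tested genes called lower and 11.7% called higher. Both 6WP libraries lay below both AM libraries in 9 genes, which held for 28.5% of all genes. The median log2 fold change of the 10 genes was -0.64, against 0.05 over all tested genes. The largest falls were in FADS2, ACSL3 and SREBF1, to 36.7%, 46.4% and 51.5% of the AM level. These genes were also the ones called higher in AM against WT cells. In bulk RNA, fewer cells of a type and less RNA per cell cannot be told apart. The number of genes called became 1 gene (ACSL3) without AM replicate 1 or without AM replicate 2, 6 genes without either WT replicate, 10 genes without 6WP replicate 1 and 9 without 6WP replicate 2.

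Against WT cells only ELOVL6 passed the test, 1 of 10 genes, against 1.37% of all tested genes called lower and 1.63% called higher. Both 6WP libraries nevertheless lay below both WT libraries in all 10 genes, which held for 25.2% of all genes. The median log2 fold change was -0.44, against 0.01 over all tested genes, and 9 of the 10 had an unadjusted p-value under 0.05. The lowest log2 fold changes were those of SCD (-0.68), ELOVL6 (-0.65) and ELOVL5 (-0.53). FADS2, ACSL3 and SREBF1, which fell most against AM cells, had -0.52, -0.47 and -0.37. The number called was 0 without either WT replicate or either AM replicate, 9 without 6WP replicate 1 and 7 without 6WP replicate 2. The 2 comparisons share the 6WP libraries and are not independent.

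In AM against WT cells, FADS2, SREBF1 and ACSL3 rose and none of the 10 genes was called lower in the fit to all 6 libraries. None of the 10 was lower at an unadjusted p under 0.05 or by DESeq2 on these libraries either. Over all tested genes 7.74% were called higher and 9.93% lower in the main fit. A fit to the WT and AM libraries alone called 7 of the 10, 5 higher and 2 lower (SCD and ELOVL6). That fit called 3390 of 14228 tested genes higher and 3230 lower. Groups did not overlap in the direction of a rise for 6 genes, which held for 36.9% of all genes, and in the direction of a fall for SCD and ELOVL6, 2 of 10, which also held for 36.9% of all genes. The median log2 fold change was 0.27, against -0.0023 over all tested genes. This comparison shares the AM libraries with that of 6WP against AM cells, so a rise here and a fall there are not independent. The number called was 0 without any one of the WT or AM replicates and 7 without either 6WP replicate, in that case 5 higher and 2 lower. Upper quartile scaling moved the split of all calls in AM against WT cells from 1136 higher and 1457 lower to 689 and 1832, and in 6WP against AM cells from 1711 and 1420 to 2276 and 1062. Under it 7 genes were lower in 6WP than in AM cells and 2 higher in AM than in WT cells.

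**Figure D2:**
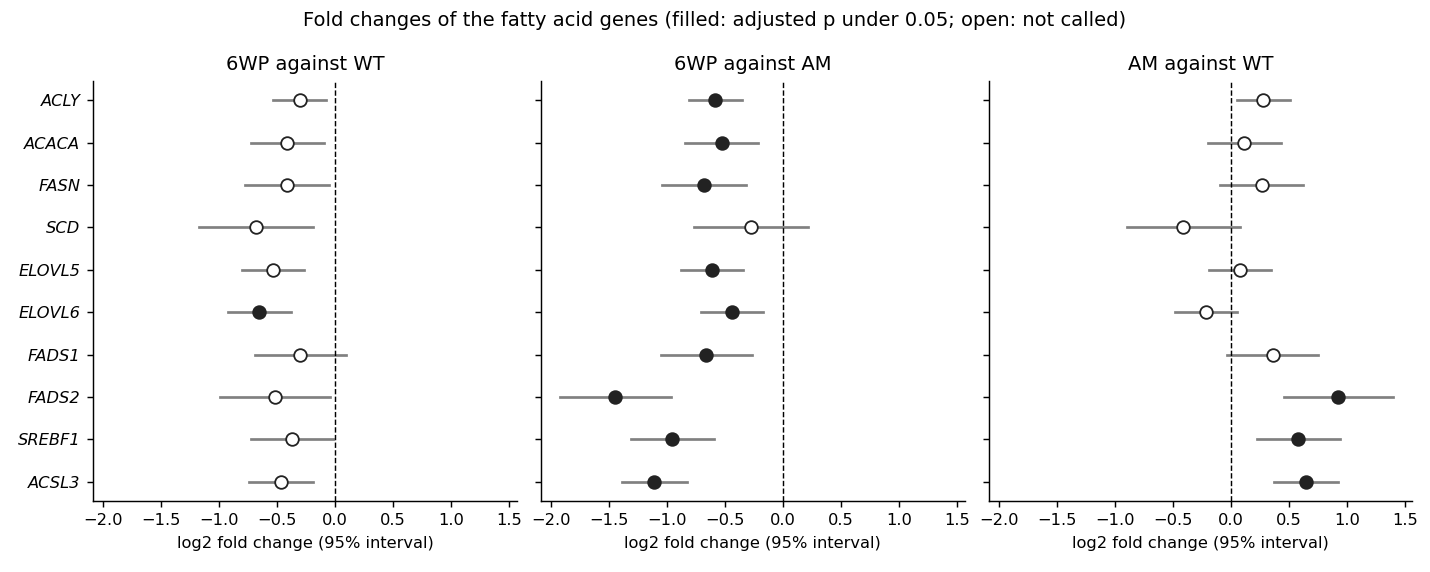
Log2 fold change (horizontal axis) with its 95% interval for each of the 10 genes in the 3 comparisons, from edgeR's quasi-likelihood model on all 6 libraries. Filled points passed an adjusted p-value of 0.05, which 9 genes did in 6WP against AM, 1 in 6WP against WT and 3 in AM against WT cells.

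At the entry step, ACLY had 579 and 588 CPM in WT, 699.9 and 716 in AM, and 474 and 471 in 6WP cells. The 3 groups did not overlap, with AM cells highest and 6WP cells lowest. ACLY fell by 0.58 on the log2 scale in 6WP against AM cells (SE 0.10, adjusted p = 0.00857). Against WT cells its log2 fold change was -0.31 (adjusted p = 0.129), and in AM against WT cells it was 0.28 (adjusted p = 0.0877). ACACA, which makes the malonyl-CoA used by FASN and the elongases, had 354 and 369 CPM in WT, 392 and 392 in AM, and 236 and 307 in 6WP cells. Its 6WP libraries were further apart than those of ACLY but both lay below every control library. ACACA fell by 0.53 against AM cells (SE 0.14, adjusted p = 0.0297), while the log2 fold change against WT cells was -0.41 (adjusted p = 0.131), or -0.25 without 6WP replicate 1 and -0.64 without 6WP replicate 2. Between AM and WT cells it was 0.12, with a 95% interval of -0.20 to 0.43.

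FASN had 598 and 801 CPM in WT, 775 and 907 in AM, and 537 and 511 in 6WP cells. Its WT replicates were 0.42 apart on the log2 scale, the widest gap of the 10 genes in WT cells, and WT and AM libraries overlapped. FASN fell by 0.68 in 6WP against AM cells (SE 0.16, adjusted p = 0.0213). Against WT cells the log2 fold change was -0.42 (adjusted p = 0.171), and without WT replicate 2 it was -0.19, which rests on the lower WT library alone.

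SCD, the most abundant transcript of the 10, followed another course. It had 1849 and 1793 CPM in WT, 1359 and 1383 in AM, and 1418 and 848 in 6WP cells. Here AM cells were below WT cells, and the 6WP libraries lay on either side of the AM libraries. The 6WP replicates were 0.74 apart on the log2 scale, where the median gap of all tested genes was 0.28. The log2 fold change was -0.68 against WT cells (SE 0.21, adjusted p = 0.116), -0.28 against AM cells (adjusted p = 0.376) and -0.41 in AM against WT cells (adjusted p = 0.207). Without 6WP replicate 2 the value was 0.016 against AM and -0.39 against WT cells, and without 6WP replicate 1 it was -0.70 and -1.12. SCD took 40.4% and 38.3% of the summed CPM of the 10 genes in WT, 29.0% and 28.4% in AM, and 39.9% and 29.0% in 6WP cells.

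Of the elongases, ELOVL6 extends palmitate and other saturated chains, and ELOVL5 acts mainly on polyunsaturated chains. ELOVL6 had 184 and 179.8 CPM in WT, 162 and 153 in AM, and 106 and 126 in 6WP cells. The groups did not overlap and stepped down from WT to AM to 6WP cells. ELOVL6 fell by 0.65 against WT cells (SE 0.12, adjusted p = 0.0312) and by 0.44 against AM cells (adjusted p = 0.0321). In AM against WT cells its log2 fold change was -0.21 (adjusted p = 0.233). ELOVL5 had 387 and 351 CPM in WT, 371 and 410 in AM, and 241 and 269 in 6WP cells. WT and AM libraries overlapped, and both 6WP libraries were below them. ELOVL5 fell by 0.61 against AM cells (SE 0.12, adjusted p = 0.0117) and had a log2 fold change of -0.53 against WT cells (adjusted p = 0.0533). Between AM and WT cells it was 0.08, with a 95% interval of -0.19 to 0.35.

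FADS1 and FADS2 encode the delta-5 and delta-6 desaturases of polyunsaturated fatty acid synthesis. FADS2 had 116 and 113 CPM in WT, 214 and 220.3 in AM, and 99.4 and 60.2 in 6WP cells. The AM libraries stood far above the rest, and the 6WP replicates were 0.72 apart on the log2 scale. FADS2 rose by 0.93 in AM against WT cells (SE 0.20, adjusted p = 0.0218) and fell by 1.45 in 6WP against AM cells (SE 0.21, adjusted p = 0.00546). Against WT cells its log2 fold change was -0.52 (adjusted p = 0.190). That value was -0.94 without 6WP replicate 1, where it was called, and -0.23 without 6WP replicate 2. FADS1 had 253 and 234 CPM in WT, 332 and 293 in AM, and 233 and 162 in 6WP cells. The higher 6WP library of FADS1 was below the lower WT library by less than 1 CPM. FADS1 fell by 0.66 against AM cells (SE 0.17, adjusted p = 0.0302), and its log2 fold changes were -0.30 against WT cells (adjusted p = 0.337) and 0.36 in AM against WT cells (adjusted p = 0.172). The value against WT cells was -0.60 without 6WP replicate 1, where it was called, and -0.09 without 6WP replicate 2. The ratio of FADS2 to FADS1 CPM within a library was 0.456 and 0.483 in WT, 0.646 and 0.751 in AM, and 0.426 and 0.371 in 6WP cells. The ratio was highest in AM and lowest in 6WP libraries, and the groups did not overlap.

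ACSL3, a long-chain acyl-CoA synthetase of the ER and lipid droplets, had 147 and 127 CPM in WT, 219 and 209 in AM, and 106 and 92.8 in 6WP cells. The 3 groups did not overlap. ACSL3 rose by 0.64 in AM against WT cells (SE 0.12, adjusted p = 0.0126) and fell by 1.11 in 6WP against AM cells (SE 0.12, adjusted p = 0.00235). It was the only one of the 10 genes called under all 13 alternatives of a comparison, that of 6WP with AM cells. Against WT cells the log2 fold change was -0.47 (adjusted p = 0.0772).

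SREBF1 encodes the transcription factor SREBP-1. It had 113 and 126 CPM in WT, 163 and 195 in AM, and 104 and 80.2 in 6WP cells. AM libraries were highest and 6WP libraries lowest, without overlap. SREBF1 rose by 0.58 in AM against WT cells (SE 0.15, adjusted p = 0.0379) and fell by 0.96 in 6WP against AM cells (SE 0.16, adjusted p = 0.00742). Against WT cells its log2 fold change was -0.37 (adjusted p = 0.207), which became -0.59 without 6WP replicate 1 and -0.22 without 6WP replicate 2. SREBF2, which encodes the sterol-responsive SREBP-2, had 497 and 530.1 CPM in WT, 408 and 445 in AM, and 414 and 435 in 6WP cells. Its log2 fold change in 6WP against AM cells was -0.01 (SE 0.11, adjusted p = 0.967), and -0.27 against WT cells (adjusted p = 0.185). In AM against WT cells it was also -0.27 (adjusted p = 0.117). The ratio of SREBF1 to SREBF2 CPM was 0.228 and 0.237 in WT, 0.3997 and 0.438 in AM, and 0.252 and 0.184 in 6WP libraries.

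**Figure D3:**
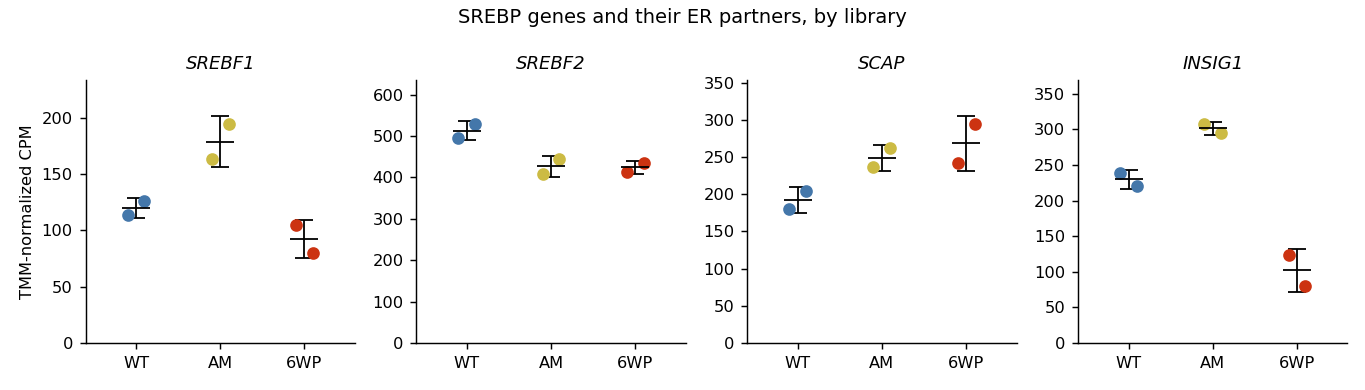
TMM-normalized CPM (vertical axes, linear from 0) of SREBF1, SREBF2, SCAP and INSIG1 in the 2 libraries of each group, with points for libraries and bars for the mean and SD. SREBF1 and INSIG1 have AM highest and 6WP lowest. SREBF2 lies between 408 and 530.1 CPM, with its AM and 6WP libraries below both WT libraries.

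Among 14 genes of SREBP processing and control, the median log2 fold change was 0.01 in 6WP against AM and -0.01 in 6WP against WT cells. INSIG1, the ER retention protein and itself an SREBP target, had 239 and 220.3 CPM in WT, 308 and 295 in AM, and 124 and 80.3 in 6WP cells. INSIG1 fell by 1.56 against AM cells (adjusted p = 0.00338) and by 1.17 against WT cells (adjusted p = 0.0222). NR1H3, which encodes the oxysterol receptor LXR alpha, fell by 0.67 against AM cells (adjusted p = 0.0252). MLXIPL, which encodes the carbohydrate response factor ChREBP, fell by 1.34 in AM against WT cells (adjusted p = 0.0273) and rose by 1.45 in 6WP against AM cells (adjusted p = 0.0175). SCAP had 179.7 and 204 CPM in WT, 237 and 262 in AM, and 243 and 295 in 6WP cells, and edgeR called it in no comparison. Its log2 fold change in 6WP cells was 0.49 against WT and 0.11 against AM cells (adjusted p = 0.0882 and 0.582). DESeq2 called 1 of the 14 genes higher and 1 lower in 6WP against WT cells. The proteases MBTPS1 and MBTPS2, which release SREBPs, had log2 fold changes of -0.03 and 0.08 in 6WP against AM cells (adjusted p = 0.828 and 0.637).

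Of 9 tested genes for precursor and NADPH supply, 2 fell and 1 rose in 6WP against AM cells, and edgeR called 0 against WT cells. At an unadjusted p under 0.05 the latter comparison had 1 higher and 1 lower, and DESeq2 called 1 lower. The list's median log2 fold change against AM cells was -0.40, where all tested genes had 0.05. Over all tested genes, 9.68% were called lower and 11.7% higher against AM cells, and 3% in either direction against WT cells. ACSS2, which makes acetyl-CoA from acetate, fell by 0.50 against AM cells (adjusted p = 0.0330), and PGD of the pentose phosphate pathway by 0.56 (adjusted p = 0.00934). PGD also rose by 0.40 in AM against WT cells (adjusted p = 0.0301). MID1IP1, an activator of acetyl-CoA carboxylase, rose by 0.76 against AM cells (adjusted p = 0.00928). ACACB, the mitochondrial carboxylase, and ME1, the cytosolic malic enzyme, had log2 fold changes of -0.24 and -0.40 against AM cells (adjusted p = 0.334 and 0.117).

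The remaining elongation and desaturation enzymes were mixed. Of 11 tested, 2 fell and 3 rose in 6WP against AM cells, 1 fell against WT cells, and 2 fell in AM against WT cells. The medians were -0.32, -0.31 and -0.29. Over all tested genes, 9.68%, 1.37% and 9.93% were called lower in these comparisons, and 11.7% were called higher in 6WP against AM cells. The dehydratases HACD2 and HACD3, which serve every elongation cycle, fell by 0.56 and 0.57 against AM cells (adjusted p = 0.0297 and 0.0130). ELOVL7 fell by 0.62 against WT cells (adjusted p = 0.0435). ELOVL4 rose by 0.56 against AM cells (adjusted p = 0.0499). SCD5, the second stearoyl-CoA desaturase, had 23 and 22 counts in WT, 3 and 8 in AM, and 16 and 15 in 6WP cells. SCD5 fell in AM against WT cells (adjusted p = 0.0118) and was higher in 6WP than in AM cells (adjusted p = 0.0496). HACD1, with 2 and 5 counts in AM cells, was called in the same directions. FADS3, the third gene of the FADS cluster, had 9.46 and 9.83 CPM in WT, 14.5 and 17.2 in AM, and 13.3 and 7.82 in 6WP cells, and edgeR called it in no comparison.

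Among 11 genes of acyl-CoA synthesis and fatty acid uptake, 3 fell and 1 rose in 6WP against AM cells, with a median of -0.16. The shares over all tested genes were 9.68% called lower and 11.7% called higher. FABP5, a fatty acid binding protein, fell by 0.99 against AM cells (adjusted p = 0.00380) and by 0.67 against WT cells (adjusted p = 0.0362). The fatty acid transporters SLC27A2 and SLC27A3 fell by 0.53 and 0.64 against AM cells (adjusted p = 0.0359 and 0.0207). CD36, a fatty acid translocase, had 2.63 and 2.39 CPM in WT, 0.560 and 0.442 in AM, and 1.92 and 1.41 in 6WP cells, a fall of 2.34 in AM against WT cells (adjusted p = 0.00629). CD36 rose by 1.74 in 6WP against AM cells (adjusted p = 0.0126). ACSL4 fell by 1.39 in AM against WT cells (adjusted p = 0.0107). ACSL1, another long-chain synthetase, had a log2 fold change of -0.29 in 6WP against AM cells (adjusted p = 0.0961), and the ratio of ACSL3 to ACSL1 CPM was 3.87 and 3.20 in WT, 5.28 and 4.81 in AM, and 3.00 and 2.71 in 6WP libraries.

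Lists of genes that use or break down fatty acids are read against the 21.3% of all tested genes called in either direction in 6WP against AM cells and the 3% called against WT cells. Whether a list had fewer calls than all genes was not tested. Of 17 genes for triglyceride and phospholipid assembly, 1 fell in 6WP against AM cells and edgeR called 0 against WT cells (3 at an unadjusted p under 0.05, 1 by DESeq2). The median against AM cells was -0.03. That gene was PCYT2, of phosphatidylethanolamine synthesis, which rose by 1.04 in AM against WT cells (adjusted p = 0.00364) and fell by 0.90 in 6WP against AM cells (adjusted p = 0.00457). Of 19 tested genes for fatty acid oxidation, 1 rose (HADHB, by 0.41, adjusted p = 0.0401) and 1 fell (ECHS1, by 0.50, adjusted p = 0.0406) in 6WP against AM cells. Their median log2 fold changes were -0.07 against AM and 0.03 against WT cells. SLC25A20, the carnitine carrier, rose by 0.47 in AM against WT cells (adjusted p = 0.0322). CPT1A, the entry enzyme of oxidation, had log2 fold changes of -0.05 against WT and 0.32 against AM cells (adjusted p = 0.859 and 0.132). In the separate mitochondrial synthesis pathway, the median was 0.09 and 1 of 10 genes was called, the acyl carrier protein NDUFAB1, which fell by 0.78 in 6WP against AM cells (adjusted p = 0.0112) and rose by 0.58 in AM against WT cells (adjusted p = 0.0315). AMPK is a kinase that inhibits acetyl-CoA carboxylase. Of its 6 tested subunit genes (median 0.37), PRKAA2 and PRKAB1 rose by 0.91 and 0.48 in 6WP against AM cells (adjusted p = 0.0187 and 0.0210). Against WT cells the median of the 6 was -0.0015 and edgeR called 0 (1 higher at an unadjusted p under 0.05, 1 higher by DESeq2). There PRKAA2 and PRKAB1 had log2 fold changes of -0.27 and 0.44 (adjusted p = 0.449 and 0.0755). PRKAA2 fell by 1.18 in AM against WT cells (adjusted p = 0.00998).

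Sterol synthesis genes, which are known targets of SREBPs, are set beside the fatty acid genes. Of 23 genes, 20 fell in 6WP against AM cells and 12 against WT cells, where 9.68% and 1.37% of all tested genes were called lower. The medians were -0.93 and -0.59 on the log2 scale, beside -0.64 and -0.44 for the fatty acid genes. In AM against WT cells 4 rose, among them NSDHL, ACAT2 and MVK, with a median of 0.33, where 7.74% of all tested genes were called higher. Of the lowest p-values against AM cells, HMGCS1, which makes HMG-CoA for the mevalonate pathway, fell by 1.69 and STARD4, a sterol carrier, by 2.02 (adjusted p = 0.00202 and 0.00233). NSDHL, HSD17B7 and SQLE fell by 1.29, 1.64 and 0.93 (adjusted p of at most 0.00235). Against WT cells HMGCS1, MSMO1, HSD17B7, STARD4 and SQLE were among those with the lowest p-values, with log2 fold changes from -1.67 to -0.59. The difference between the 2 groups of genes was not tested.

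**Figure D4:**
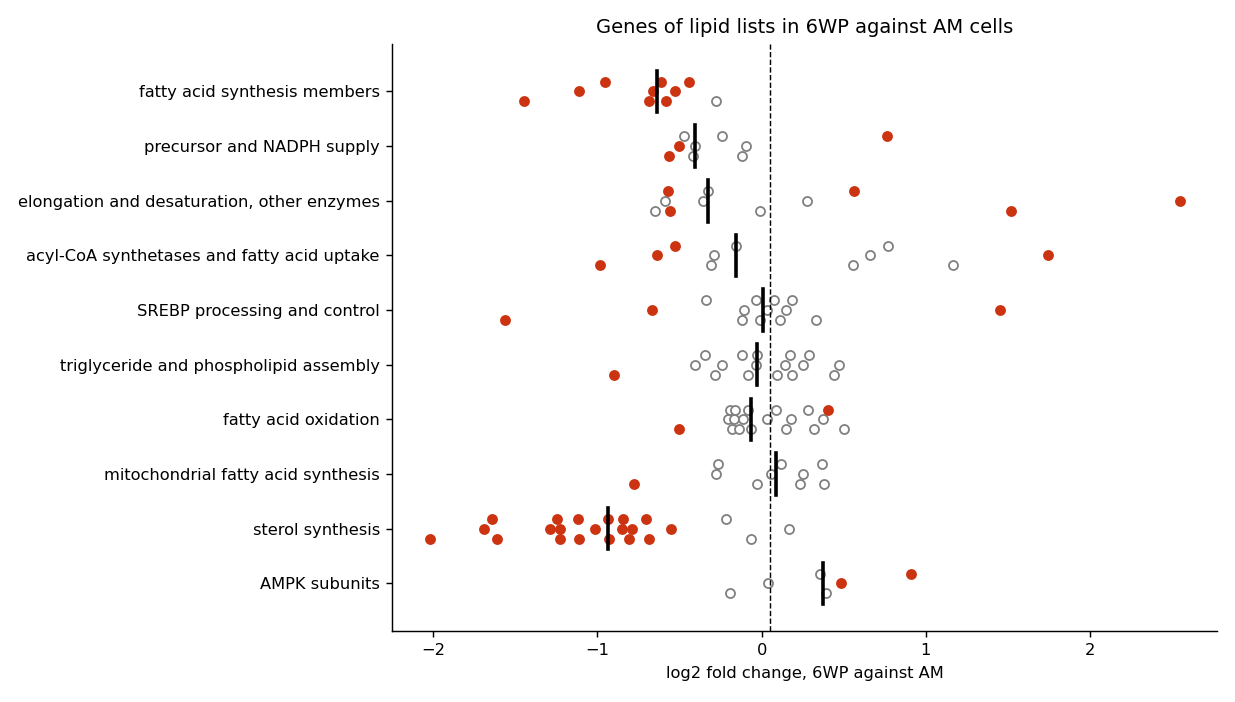
Log2 difference between 6WP and AM cells (horizontal axis) for every tested member of the 10 fatty acid genes and 9 other lipid lists; filled points passed an adjusted p-value of 0.05, thick bars are list medians and the dashed line is the median of all tested genes. The fatty acid (median -0.64) and sterol synthesis lists (-0.93) lie furthest to the left. Precursor and NADPH supply (-0.40), other elongation and desaturation enzymes (-0.32) and acyl-CoA synthetases and uptake (-0.16) also have medians to the left. Oxidation and assembly genes lie around the dashed line, and the AMPK subunits (0.37) lie to the right.

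The 10 genes were also summarised by their median profile over the 6 libraries, each gene centred on its own mean. The profile stood at 0.04 and 0.05 in WT, 0.25 and 0.30 in AM, and -0.32 and -0.50 in 6WP libraries on the log2 scale. Single genes correlated with it at r from 0.58 (SCD) and 0.71 (ELOVL6) to 0.97 (ACLY) over 6 libraries. Among 7675 other expressed genes with a range of at least 0.5, the 10 whose profiles correlated most closely with it were PTMA, EFTUD2, DHCR7, PRPF8, HSP90B1, PIM2, LYPD6, NUP205, PAN2 and LSS (r from 0.992 to 0.999, n = 6 libraries). DHCR7 and LSS belong to sterol synthesis and HSP90B1 is an ER chaperone, while the rest belong to none of the lipid lists used here. Whether sterol genes were more frequent among them than among the 7675 genes was not tested. These correlations describe 6 libraries that share their scaling and fall into 3 groups, so they are given without a test.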

How the data were processed

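RNA of 22Rv1 cells was sequenced by the study as 100 bp single end reads. The authors aligned them to hg38 with STAR 2.5.3a and assembled transcripts with StringTie 1.3.3. featureCounts 1.5.3 is listed in the submitters' processing notes, with no strand setting or annotation given. The authors deposited raw counts for each gene symbol and library, without normalization, and 0 value columns were left out.

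From these counts, genes were kept with edgeR's filterByExpr (edgeR 4.0.16, R 4.3.3), scaled with TMM and fitted with a quasi-likelihood model without covariates on all 6 libraries. The design followed the study's use of edgeR and TMM. Tests are two-sided, p-values received Benjamini-Hochberg adjustment across the 14672 tested genes, and a gene was called at an adjusted p under 0.05. Standard errors were derived from the fold change and its F statistic. CPM use the total times the TMM factor, and log2 CPM a prior count of 2. With 2 libraries against 2, an exact permutation test cannot give p below 0.333, so calls rest on the model. Exon lengths and positions are from GENCODE release 44 (GRCh38), and promoters from RefSeq. Older symbols served for HACD1, HACD2, HACD3, SPRING1, GPAT3 and GPAT4.

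The 10 genes and all lists were chosen with earlier results of these data known. Named genes are all 10 members, a few fixed partners, the called genes of each list (at most 6 per comparison, by p-value) and the 10 genes of most similar profile. Some genes that this rule selects are not reported here. Alternatives were DESeq2 size factors, upper quartile factors, 2 other filters (1 count in total, or 10 in every library), the DESeq2 1.42.0 Wald test, a fit to 2 groups, a replicate block and each library left out. The fit was tested on simulated counts for 6WP against WT cells. It called 69 of 100 genes changed by a log2 fold of 1, 93 of 100 changed by 2, and 12 other genes. Smaller changes were not simulated. The labels name the replicates biological, without saying whether they were separate cultures, so p-values measure the spread between these libraries. No batch is given by the labels.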

Additional observations from a re-analysis of the deposited data

How the results depend on the processing

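Of 390 values for the 10 genes under 13 alternatives, 308 kept direction and side of the threshold, 45 lost the call, 34 gained it and 3 changed sign. SCD in 6WP against AM cells became 0.016 without 6WP replicate 2 (-0.70 to 0.016 over the libraries left out), and ELOVL5 in AM against WT cells became -0.011 with upper quartile normalization and -0.0061 without AM replicate 2 (-0.0061 to 0.16 over the libraries left out). In 6WP against WT cells the 1 fatty acid gene called became 2 with DESeq2 size factors or upper quartile normalization, 3 with no filter beyond 1 count, 4 with the DESeq2 Wald test and 0 with only the 2 groups compared. All genes called there went from 440 to 894 with no filter, 1124 with the Wald test and 96 with only the 2 groups. In 6WP against AM cells all genes called went from 3131 to 1309 with only the 2 groups, where 6 fatty acid genes were called, and in AM against WT cells from 2593 to 6620, and the fatty acid genes from 3 to 7. Leaving out each library in turn gave 0 to 3870 genes in 6WP against WT cells, 116 to 6807 in 6WP against AM cells and 67 to 6654 in AM against WT cells. For the fatty acid genes these ranges were 0 to 9, 1 to 10 and 0 to 7. A group left with 1 library is assumed to vary like the others. The cause of these ranges was not tested. With the replicate block, 393, 3069 and 2485 genes and 1, 9 and 3 fatty acid genes were called in the 3 comparisons. The numbers share no stated source, and deviations of same-numbered libraries correlated at 0.040 (WT and AM), 0.087 (WT and 6WP) and -0.021 (AM and 6WP).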
